A study of Sus scrofa with 54 samples.

Results

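Endomyocardial biopsies (EMB) taken with 2 devices from the same hearts were compared by RNA-seq. The comparison held the baseline left ventricular biopsies of the pigs that had been sampled with both devices, pigs 4491 and 4494, and these made up 14 of the 54 samples of the series. They were 8 micro-EMB samples, 4 from each pig, and 6 conventional EMB samples, 3 from each pig. Micro-EMB was a prototype device of sub-millimetre width that was passed through a micro-catheter and cut out a sub-milligram piece of the ventricular wall, and conventional EMB was taken with clinical forceps bioptomes. All 14 samples came from the naive left ventricle of adult female farm pigs, so both groups shared species, sex, chamber and timepoint and differed in device. As a model of the device the comparison is limited to 2 animals, so every p-value below measures the spread between biopsies, and the RNA was isolated in several random batches whose assignment to samples is not given in the sources used here.

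A ventricular biopsy is a mixture of cells. Cardiomyocytes fill most of its volume and give it its sarcomere, calcium handling and mitochondrial RNA, whereas fibroblasts make the collagens and other matrix proteins, and endothelial cells, pericytes, smooth muscle cells, resident macrophages and the endocardial lining account for most of the remaining cells. A biopsy taken from the cavity can also carry blood, whose red cells, leukocytes and platelets bring their own RNA. In a bulk sample fewer cells of a type and less RNA per cell cannot be told apart, and this holds for every gene level given here.

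The libraries held between 73988 and 4649613 counted reads. The conventional libraries were close in depth, from 950326 to 2348370 reads, and the micro-EMB libraries spanned the whole range. Before any comparison, 5 libraries stood apart. Micro-EMB samples 10 and 21 of pig 4491 had 1386 and 1689 genes at 1 CPM or more (CPM is a gene's count scaled to the same library total in every sample), against 9262 to 17076 in the other 6 micro-EMB libraries and 10666 to 13909 in the 6 conventional libraries. Sample 10 was also the shallowest library, and in sample 21 the single unnamed gene ENSSSCG00000024853 took 56.9% of all counts. Conventional sample 38 and micro-EMB samples 4 and 19 carried the highest shares of 115 blood genes, 1.81% (95% Wilson interval 1.79 to 1.82), 1.39% (1.36 to 1.43) and 0.577% (0.551 to 0.604) of counts, where the 6 blood libraries of the series held 1.99 to 2.65%. Sample 21 followed closely at 0.472% (0.457 to 0.487), and sample 26 came next at 0.167%. By the 841 blood genes that the study listed, samples 4 and 38 also led, at 146426 and 116841 CPM against 331132 CPM or more in blood, but sample 19 at 58631 CPM lay below samples 26, 18 and 16. Sample 21 was the lowest of the 14 by these genes, at 30560 CPM. The intervals of the blood shares cover counting error only, since reads copied by PCR are not separate molecules. Results are given for all 14 libraries and without samples 10 and 21, samples 4, 19 and 38, or all 5, which were chosen with their values known.

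The labelled tissue was checked against 16 contractile genes of cardiomyocytes. Their summed level was 33651 to 155678 CPM in 11 of the 14 libraries and 48.5 to 85.2 CPM in blood. It was 33709 to 67410 CPM in skeletal muscle, so this sum does not tell heart from skeletal muscle. Micro-EMB samples 19, 26 and 10 held 33651, 48758 and 70849 CPM, below, within and just above that range. In conventional sample 38 and micro-EMB samples 4 and 21 it was 1075, 1192 and 1532 CPM. TNNT2, cardiac troponin T, stood at 26.3 CPM in sample 38, 56.4 CPM in sample 4 and 217 CPM in sample 21, against 3377 CPM or more in the other 11. MYH6, a cardiac myosin heavy chain whose reads can be shared with near-identical myosins, stood at 24.5, 81.3 and 237 CPM in these libraries. The libraries labelled left ventricle therefore included 3 in which heart muscle transcripts were near the bottom of the range.

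These 3 libraries had the highest summed levels of platelet genes. The summed level of 3 platelet genes was 8121 CPM in sample 38, 4674 CPM in sample 4 and 1177 CPM in sample 21. It did not pass 323 CPM in the rest of the 14 libraries, and it was 44.8 to 413 CPM in the blood libraries. Over 7 erythroid genes samples 38 and 4 held 2566 and 7046 CPM, against 30164 to 66203 CPM in blood. Where these transcripts came from was not tested. Sample 21 had reads on 1 of the platelet genes only, whereas samples 38 and 4 had reads on all 3. F13A1, the A subunit of coagulation factor XIII that platelets and macrophages express, stood at 3551 CPM in sample 38 and 3130 CPM in sample 4. Over 8 tissue macrophage genes, F13A1 among them, the sum was 3750 CPM in sample 38 and 3228 CPM in sample 4, and it was also 2755 CPM in sample 26, whereas sample 21 had 496 CPM from 1 gene. In the blood libraries this sum was 99.1 to 392 CPM. The gene with the most counts in both sample 38 and sample 4 was ACTB, cytoplasmic actin, with 4.89% and 3.01% of counts, whereas MYH6 led in all 5 other conventional libraries. Samples 38 and 4 came from different pigs and different devices, and their rank correlation across genes was 0.773. Sample 10 differed in another way, with 51387 CPM over 11 skeletal muscle genes, against at most 13165 CPM in the other 13. The skeletal muscle libraries of the series held 29352 to 126026 CPM over these genes. MYH8, the perinatal myosin heavy chain, was its leading gene at 62794 CPM.

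**Figure D1:**
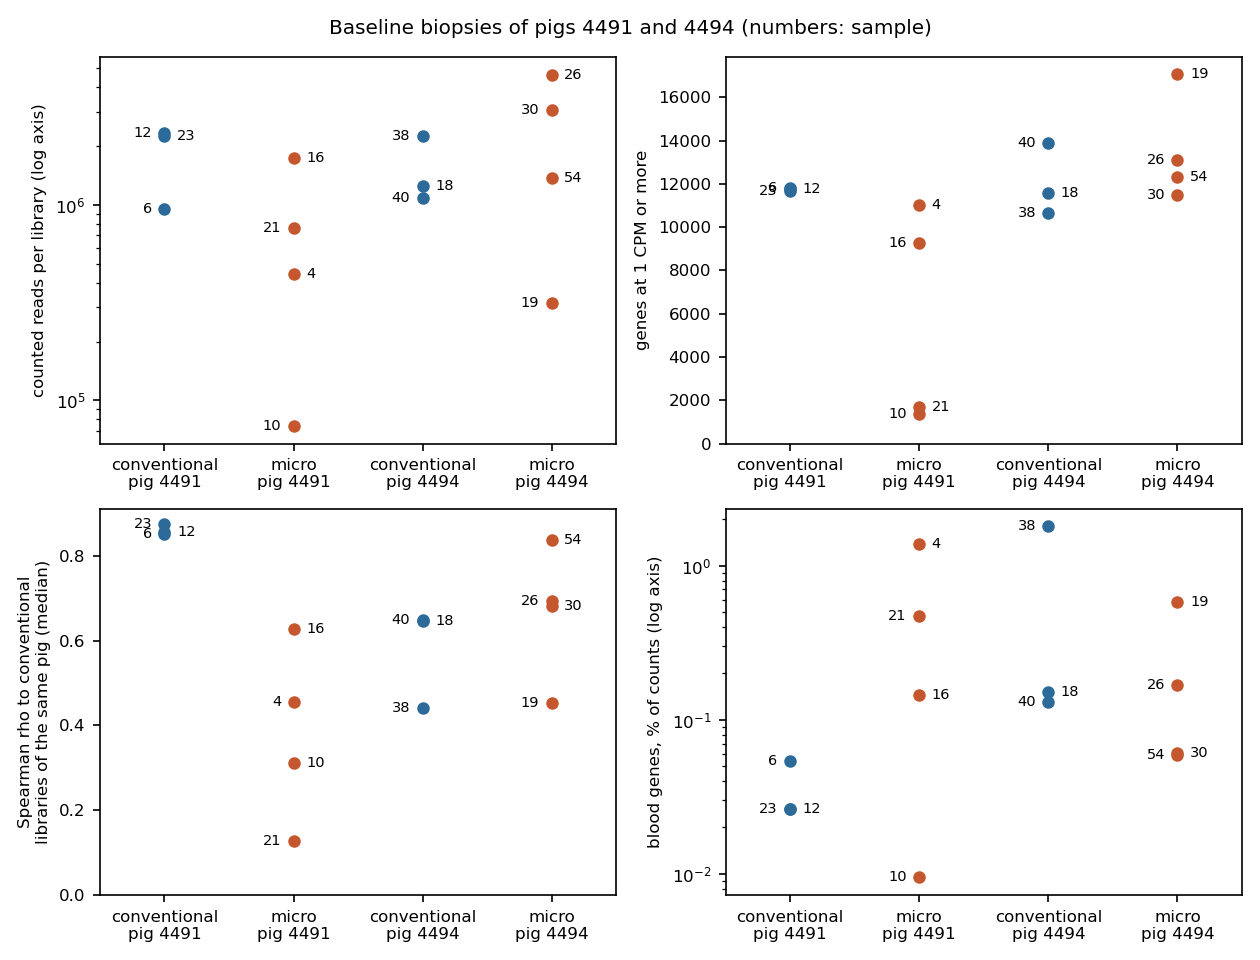
Each point is 1 baseline library of pig 4491 or 4494, labelled with its sample number, with conventional EMB in blue and micro-EMB in orange. The panels show counted reads on a log axis, genes at 1 CPM or more, the median Spearman correlation with the conventional libraries of the same pig, and the share of counts in blood genes on a log axis. Samples 10 and 21 sit at 1386 and 1689 genes, and samples 38 and 4 at 1.81% and 1.39% of counts in blood genes.

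The first question was whether libraries from the smaller device were as rich and as reproducible. Expressed genes numbered 9668 ± 5494 (SD, n = 8) with micro-EMB and 11904 ± 1070 (SD, n = 6) with conventional EMB. In all 14 libraries the difference within pigs, averaged over the pigs, was -2235 genes. It was not larger than the spread between biopsies (2-sided exact permutation of the device within pigs, p = 0.273, adjusted p = 0.617 over 6 measures). In pig 4491 the micro-EMB libraries held 1386 to 11014 genes and the conventional libraries 11685 to 11810. In pig 4494 they held 11499 to 17076 and 10666 to 13909 genes, so the groups overlapped in pig 4494 and not in pig 4491. Without samples 10 and 21 the difference was -85.3 genes (exact permutation, p = 0.929). These libraries were left out for this same measure, so that value cannot show whether the devices were alike. Without samples 4, 19 and 38 the difference was -4042 genes (exact permutation, p = 0.03, adjusted p = 0.09). Without samples 4, 10, 19, 21 and 38 it was -1467 genes (exact permutation, p = 0.075, adjusted p = 0.225). When each of the 14 libraries was thinned to the depth of the shallowest, 73988 reads, micro-EMB libraries held 7272 ± 4160 genes and conventional libraries 8062 ± 648 (exact permutation, adjusted p = 0.980). The blood share was alike in mean, 0.360 ± 0.464% and 0.366 ± 0.708%, and its difference was -0.00600 percentage points (exact permutation, p = 0.980). Each group held libraries from both ends of the range of blood shares.

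Reproducibility was read from rank correlations across genes. The 6 conventional libraries correlated with each other at rho 0.361 to 0.879 (15 pairs, median 0.834), and the 8 micro-EMB libraries at 0.117 to 0.775 (28 pairs, median 0.377). Without sample 38 the 5 conventional libraries correlated at 0.818 to 0.879 (10 pairs, median 0.855), and without samples 4, 10, 19 and 21 the 4 micro-EMB libraries correlated at 0.657 to 0.775 (6 pairs, median 0.705). Sample 54 matched the conventional libraries best, with rho 0.821 to 0.871 to those 5, which lay within the range the conventional libraries had among themselves. Samples 30, 26 and 16 followed at 0.672 to 0.764, 0.677 to 0.742 and 0.581 to 0.664. Samples 4 and 19 lay at 0.445 to 0.520 and 0.399 to 0.484, and samples 10 and 21 at 0.307 to 0.318 and 0.113 to 0.167. Genes are not independent replicates, so these correlations describe the libraries and carry no p-value, and low depth and many genes at 0 lower them.

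The median correlation of a library with the conventional libraries of its own pig was 0.524 ± 0.231 (SD, n = 8) for micro-EMB and 0.720 ± 0.172 (SD, n = 6) for conventional EMB. The difference of -0.196, averaged over the pigs, had p = 0.0351 by exact permutation and an adjusted p of 0.211 over the 6 measures. It was not alike in the pigs. In pig 4491 the micro-EMB values were 0.128 to 0.627 and the conventional values 0.852 to 0.875. In pig 4494 they were 0.453 to 0.837 and 0.441 to 0.649, so the groups overlapped there. Without samples 4, 19 and 38 the values were 0.549 ± 0.270 (n = 6) and 0.859 ± 0.00898 (n = 5), and the difference of -0.309 had an adjusted p of 0.03 by exact permutation. It also passed without sample 38 alone, with an adjusted p of 0.0114 by exact permutation. Sample 38 correlated with the other 5 conventional libraries at 0.361 to 0.442, so leaving it out raises the conventional values by itself. Micro-EMB samples 10 and 21 stayed in both comparisons, so both passing values follow in part from the choice of libraries. Without samples 4, 19 and 38 the unadjusted p of 0.005 by exact permutation was the smallest that 200 relabellings allow. In the 9 libraries left after removing samples 4, 10, 19, 21 and 38, the difference was -0.174 at p = 0.025, the smallest that the 40 relabellings of this exact permutation allow, and the adjusted p was 0.15.

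Gene by gene, the 14 libraries did not separate the devices. None of 9717 genes was called by edgeR's quasi-likelihood test with the pig as covariate, at a Benjamini-Hochberg adjusted p under 0.05 and a change past 2-fold (0% of genes tested). The smallest adjusted p was 0.28. At an unadjusted p under 0.05, 102 genes (1.05%) were higher and 212 (2.18%) lower in micro-EMB. With the same counts DESeq2 called 13 genes and limma-voom with sample quality weights called 12. The absence of edgeR calls does not show that the devices gave the same values, since the 95% interval of the fold change stayed within 2-fold in either direction for 3 genes only, and the biological coefficient of variation was 1.16. Without samples 10 and 21, 0 of 10746 genes were called (0%), with 527 genes at an unadjusted p under 0.05, and 384 intervals stayed within 2-fold.

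The genes with the smallest p in the 14 libraries were not called, and several rested on 1 library. ITGBL1 (ENSSSCG00000009526), an integrin-like secreted protein of stromal cells, had the lowest p of all genes with a symbol. It was at 0 CPM in 4 conventional libraries and at 1.05 and 2.98 CPM in samples 6 and 12, whereas the micro-EMB samples 16, 26, 30 and 54 held 130, 85.6, 51.9 and 39.5 CPM, samples 19 and 4 held 15.8 and 4.51 CPM, and samples 10 and 21 none. Its log2 fold change was 5.73 with a standard error (SE) of 1.37 and an edgeR adjusted p of 0.28. The 2 empty micro-EMB libraries were those with few genes, so the groups overlapped there only and in the same libraries most other genes were at 0 as well. The unnamed gene ENSSSCG00000024796 had a log2 fold change of 5.80, the same adjusted p, and 0 CPM in 4 conventional libraries. Among the 10 named genes with the smallest p on the micro-EMB side were MYH8, BMPR1B, a bone morphogenetic protein receptor, and MYBPC2, the fast skeletal myosin binding protein. In sample 10 they stood at 62794, 1406 and 1122 CPM, and in the other 13 libraries none of them passed 168 CPM. NOS1, neuronal nitric oxide synthase, stood at 250 CPM in sample 19 and 335 CPM in sample 21 and at 24.8 CPM or less in the rest. The others on this side were PKHD1L1, EPS8L2, IGFBP6, GALNT15 and AOC1, with log2 fold changes from 3.78 to 4.85.

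On the conventional side the 10 named genes with the smallest p included genes of heart muscle energy supply. PDK4, a kinase that slows glucose oxidation by inhibiting pyruvate dehydrogenase, stood at 848, 1311, 3988, 606 and 992 CPM in conventional samples 6, 12, 23, 18 and 40 and at 3.57 CPM in sample 38. In micro-EMB it reached 334 CPM in sample 54, 195 CPM in sample 16, 51.6 CPM in sample 26 and 35.3 CPM in sample 30, was at 28.5 CPM or less in samples 19 and 4, and was at 0 in samples 10 and 21. All 8 micro-EMB libraries were below these 5 conventional libraries, and sample 38 was low as well. The log2 fold change was -4.02 (SE 1.25, edgeR adjusted p = 0.864). NDUFS4, a subunit of respiratory complex I, had a log2 fold change of -3.79 and NPPB, the precursor of B-type natriuretic peptide, one of -3.01. SERPINB2, a plasminogen activator inhibitor, had one of -3.19 and the small nucleolar RNA SNORD97 one of -3.19. HMCES, FAM162A, DTNA, SMIM11 and OTUD1 completed this set with values from -4.51 to -3.23. The unnamed genes ENSSSCG00000003594 and ENSSSCG00000006246 had log2 fold changes of -4.32 and -4.08.

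Leaving out the libraries with many blood counts gave a few calls. Without samples 4, 19 and 38, 5 of 10246 genes (0.0488%) were called, all higher in micro-EMB, and they were PRRT2, ONECUT2, CXCL14, EPS8L2 and ENSSSCG00000024853. PRRT2, a membrane protein of synapses, had no read in the 5 conventional libraries and was at 386 CPM in sample 21, at 73.4 CPM in sample 30 and at 21.3 CPM or less in the other 4 micro-EMB libraries. Taking 3 counts over the whole conventional group as the floor, the micro-EMB mean was at least 215-fold higher. ONECUT2, a homeobox transcription factor, also had no conventional read and stood at 1473 CPM in sample 10 and 165 CPM in sample 21, and at 9.16 CPM or less in the other 4. The mean of the 6 micro-EMB libraries was at least 724-fold higher by the same floor, and it rested on samples 10 and 21. With 73988 reads, 3 counts in sample 10 equal 40.5 CPM. CXCL14, a chemokine, was highest in sample 21 at 192 CPM, and EPS8L2, a protein of actin regulation, in sample 10 at 433 CPM. In the 9 libraries without samples 10 and 21 none of these genes was called, and ONECUT2 was not tested.

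The 9 libraries that remained without all 5 were the most uniform set, with 4 micro-EMB samples (16 of pig 4491, and 26, 30 and 54 of pig 4494) and 5 conventional samples (6, 12 and 23 of pig 4491, and 18 and 40 of pig 4494). Here 49 of 11602 genes (0.422%) were called by edgeR, 41 higher and 8 lower in micro-EMB, with absolute log2 fold changes from 1.57 to 8.31. This split was not stable, since it was 27 higher and 27 lower with the blood share as a covariate, 419 and 456 with DESeq2, and 155 and 182 without sample 54. The lowest micro-EMB library lay above the highest conventional library in 37 of the 41, and the highest micro-EMB library lay below the lowest conventional one in 7 of the 8. The genes were called on these same libraries, so such separation goes with the call and is not support for it. The share of all genes tested that separated in this way was not computed. At an unadjusted p under 0.05, 981 genes (8.46%) were higher and 929 (8.01%) lower. Counts of list members in the 9 libraries are to be read beside these shares and the 0.422% called. Scaling to library totals in place of TMM moved the median log2 fold change of all genes from -0.12 to 0.04. The split at the unadjusted limit moved to 1377 higher and 688 lower. Genes named below from this set were chosen after their values were seen, apart from the list members.

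The 49 calls did not rest evenly on the libraries. The 4 micro-EMB libraries held 1366320 to 4649613 reads and the 5 conventional libraries 950326 to 2348370, and the part of depth in the calls was not tested. Leaving out sample 16, the only remaining micro-EMB library of pig 4491, left 0 genes called by edgeR, with 1474 at an unadjusted p under 0.05. Leaving out conventional sample 23 left 2, sample 40 left 3, sample 18 left 9, sample 6 left 19 and sample 12 left 26, and leaving out sample 26 left 31. Without micro-EMB sample 54, the library most like the conventional ones, 337 genes were called, and 48 of the 49 were among them. All 49 kept their direction without each of the 9 libraries in turn and within pig 4494 alone, where none was called. In all 14 libraries 48 were tested, 46 had the same direction and none was called. All of these fits share libraries with the 9 that chose the genes, so a kept direction is not separate support for the calls. None of the 49 was called in a second of the 4 sets of libraries.

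**Figure D2:**
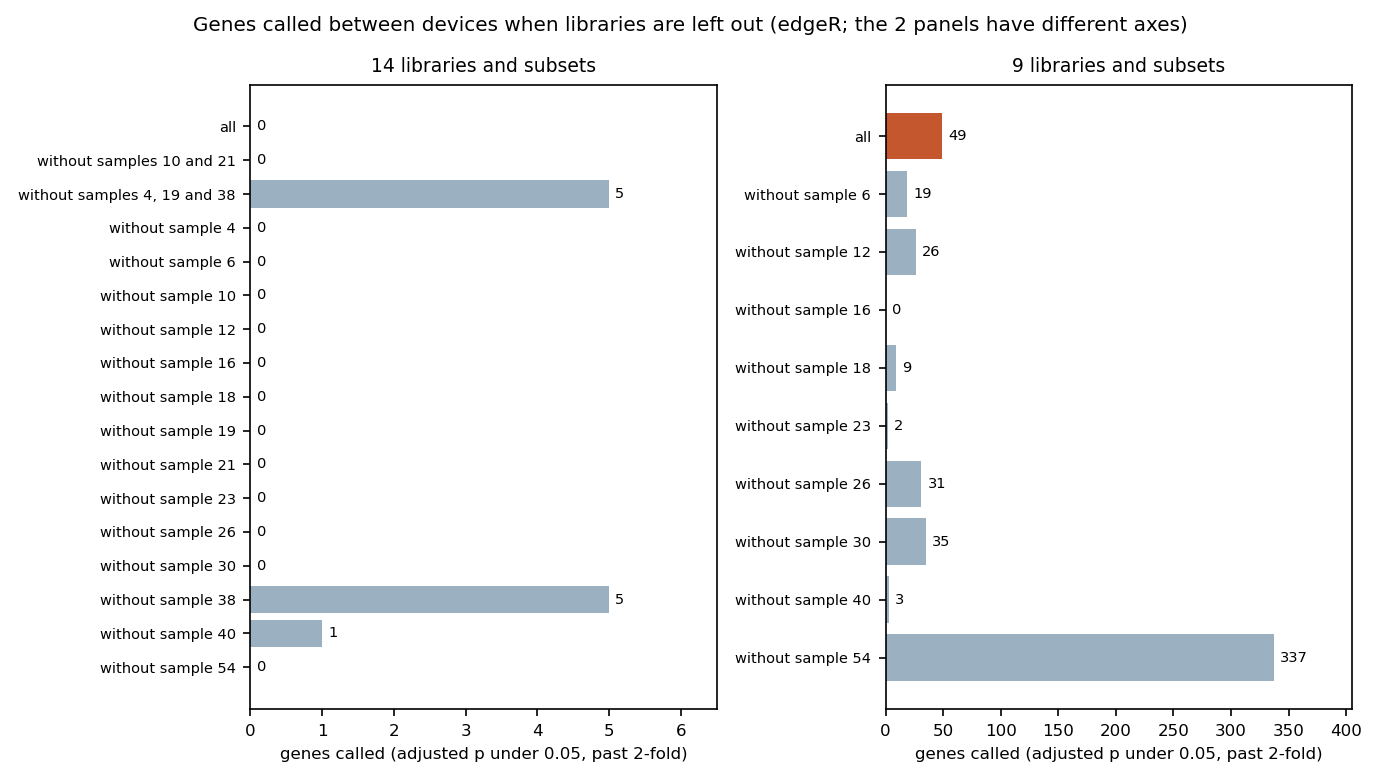
Bars give the number of genes called between the devices by edgeR, on the x axis, after leaving out the libraries named on the y axis, for the 14 libraries (left) and the 9 libraries (right, with its own axis). The 49 calls of the 9 libraries, in orange, become 0 without sample 16 and 337 without sample 54.

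Several extracellular matrix genes were higher in micro-EMB in the 9 libraries. Of 19 tested fibroblast and matrix genes, 3 were called higher, 12 were higher and 0 lower at an unadjusted p under 0.05, and the median log2 fold change was 1.61, beside -0.12 over all 11602 genes. Over all genes 0.422% were called and 8.46% were higher at that limit. Leaving out each of the 9 libraries in turn moved this median between 0.97 and 1.89, the calls between 0 and 6, and the 12 between 7 and 14. The calls were 6 without sample 54, 2 without sample 12, 1 without sample 26 and 0 without each of the other 6. Without sample 54, 155 of all 11703 genes tested were called higher. Within pig 4494 alone the counts were 12 and 0 and the median 1.91, where 743 of all 10392 genes tested were higher at the unadjusted limit. In all 14 libraries none of the 19 passed the unadjusted limit and the median was 0.22, beside -0.47 over all genes, and it was 1.08 without samples 10 and 21.

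The summed level of the 20 matrix genes in the table shows where this came from. It was 6439, 11676, 13408, 15071 and 6902 CPM in conventional samples 6, 12, 23, 18 and 40, and 24661, 79860, 25714 and 22217 CPM in micro-EMB samples 16, 26, 30 and 54. Every one of these 4 lay above every conventional library, and sample 26 held more than any other library of the 14. The 4 micro-EMB libraries left out lay below, at 1639 CPM in sample 4, 3460 CPM in sample 10, 2715 CPM in sample 19 and 6585 CPM in sample 21. In the 12 baseline micro-EMB libraries of the other 3 pigs the sum ran from 2258 to 56531 CPM with a median of 19642 CPM, above the highest conventional library, but those pigs had no baseline conventional EMB, so device and pig cannot be told apart there.

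COL1A2 (ENSSSCG00000015326), a chain of type I collagen, stood at 817, 1580, 1588, 2194 and 940 CPM in the conventional samples 6, 12, 23, 18 and 40. In micro-EMB samples 16, 26, 30 and 54 it stood at 5252, 14120, 5968 and 5324 CPM. The groups did not overlap, and the log2 fold change was 2.09 (95% interval 1.18 to 3.01, edgeR adjusted p = 0.0488). COL5A1, a chain of the type V collagen that nucleates fibrils, stood at 63.1 to 444 CPM in conventional EMB and at 1569, 2378, 1865 and 299 CPM in the same micro-EMB samples. Sample 54 lay below conventional sample 12, and the log2 fold change was 3.42 (1.98 to 4.86, adjusted p = 0.0488). COL6A2, a chain of type VI collagen, was higher by 2.39 with the same overlap of samples 54 and 12. COL3A1, a chain of type III collagen and the first gene of sample 26 with 2.87% of its counts, did not pass, with a log2 fold change of 1.17 (0.06 to 2.28, adjusted p = 0.281). The fibroblast markers DCN and PDGFRA, decorin and the alpha receptor for platelet-derived growth factor, had log2 fold changes of 0.95 (-0.36 to 2.26) and 0.30 (-0.75 to 1.36). The called members were collagen chains, and neither fibroblast marker was called.

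Matrix genes outside the list were also among the calls. LTBP2, a microfibril protein that binds fibrillin, stood at 2.1, 43.0, 20.5, 16.0 and 15.6 CPM in the 5 conventional samples and at 579, 267, 207 and 61.5 CPM in the 4 micro-EMB samples. Its log2 fold change was 3.81 (2.55 to 5.07, edgeR adjusted p = 0.0147), and among the libraries left out it was at 165 CPM in sample 4, 88.6 CPM in sample 19 and 70.6 CPM in sample 21, each above all 6 conventional libraries. COL16A1 and COL11A1, chains of minor fibril-associated and fibrillar collagens, were higher by 2.36 and 3.37. THBS2, a matricellular thrombospondin, was higher by 2.71, and ADAMTSL3, a matrix protein related to the ADAMTS proteases, by 3.04. AEBP1, a collagen-binding carboxypeptidase-like protein, was higher by 3.05, and MRC2, a collagen uptake receptor of fibroblasts, by 2.59. ITGBL1 was higher by 6.88 (4.99 to 8.77, adjusted p = 0.00704). These are log2 fold changes, and all of the adjusted p-values were under 0.05 by edgeR.

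Other called genes are described here after their values were seen. APOE (ENSSSCG00000003088), the apolipoprotein that macrophages and other cells secrete, had the smallest adjusted p of all. It stood at 1.05, 3.83, 6.23, 4.80 and 1.84 CPM in conventional samples 6, 12, 23, 18 and 40. In micro-EMB samples 16, 26, 30 and 54 it stood at 228, 117, 98.3 and 27.1 CPM. The groups did not overlap and the log2 fold change was 4.98 (3.72 to 6.24, edgeR adjusted p = 0.00507). Sample 4 held 45.1 CPM and the other 3 libraries left out of micro-EMB held 0, whereas conventional sample 38 held 15.6 CPM. In the micro-EMB libraries of the other 3 pigs the median was 3.08 CPM, within the conventional range, and the highest value was 118 CPM.

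The complement genes C4A and C3 were also higher. C4A stood at 6.41 to 21.4 CPM in the 5 conventional libraries and at 85.3, 1183, 228 and 276 CPM in the 4 micro-EMB libraries, a log2 fold change of 4.42 (2.74 to 6.10, edgeR adjusted p = 0.0277). It was at 194 and 187 CPM in samples 4 and 19 too, so that 6 of 8 micro-EMB libraries lay above all 6 conventional libraries and samples 10 and 21 were at 0. C3 was higher by 2.51, and it reached 7368 CPM in a library of the other pigs. IGFBP6, which binds insulin-like growth factor II, was higher by 5.54, and CLEC3B, the plasminogen-binding tetranectin, by 2.30. RRBP1, a ribosome-binding protein of the endoplasmic reticulum in secretory cells, stood at 147 to 262 CPM in conventional EMB and at 580 to 1333 CPM in micro-EMB and was higher by 2.05. FASN, fatty acid synthase, was higher by 2.94, and 2 of the 6 tested adipocyte genes passed the unadjusted limit, both higher, with PLIN1, the lipid droplet protein perilipin 1, not called (log2 fold change 8.79, adjusted p = 0.0535).

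**Figure D3:**
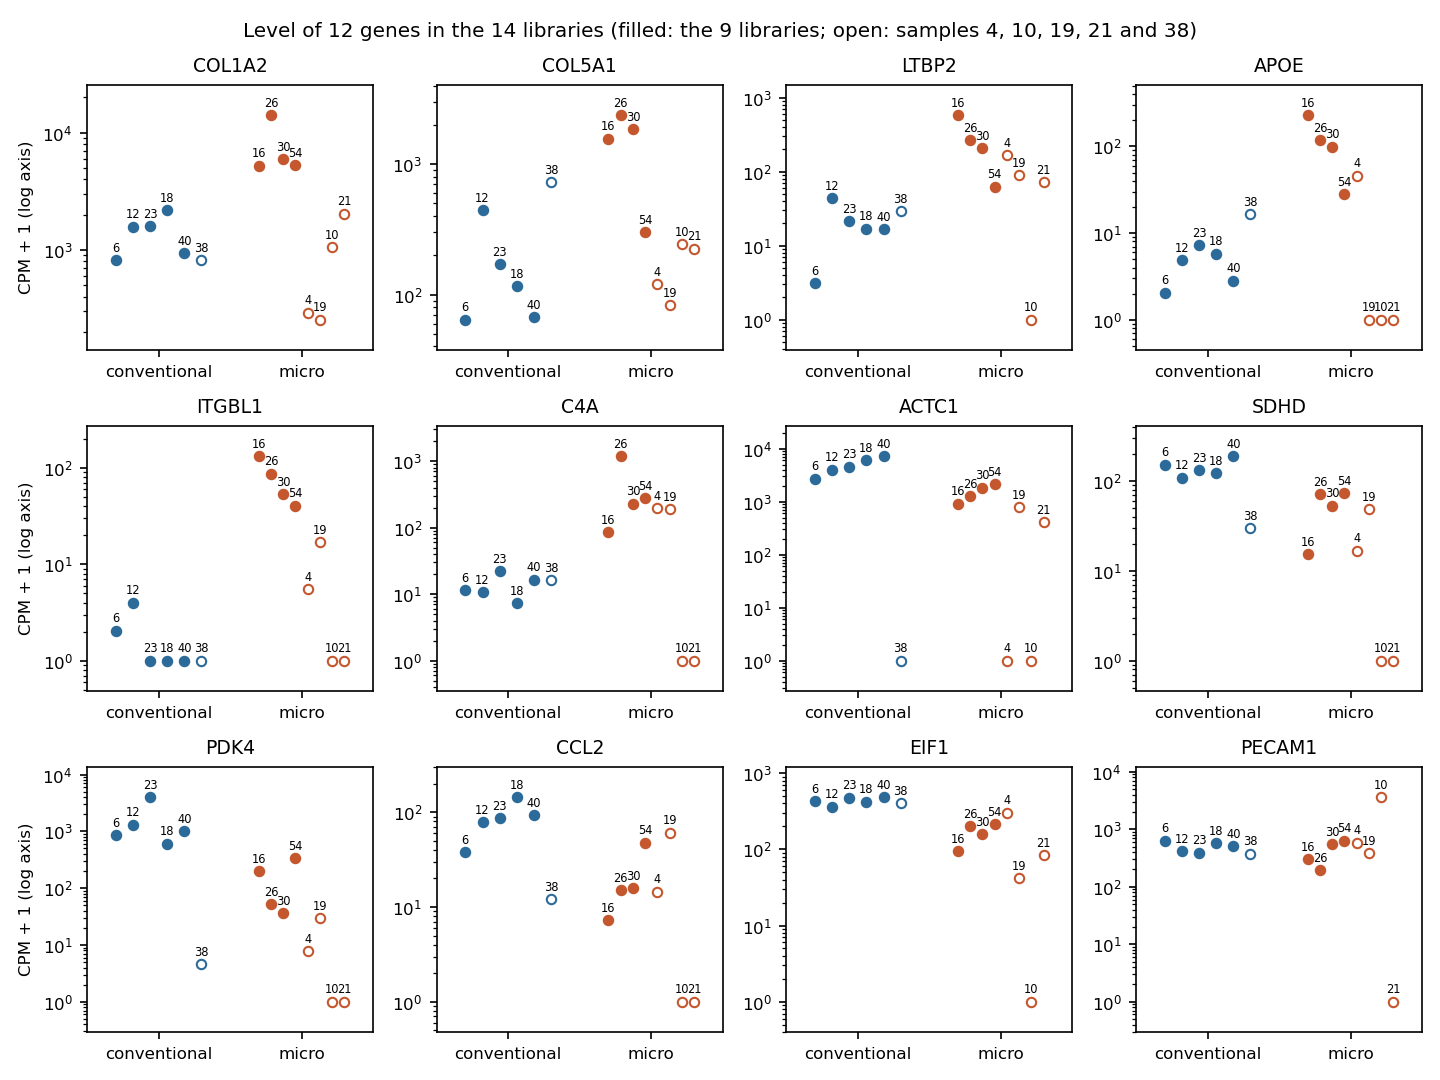
Levels of 12 genes in each of the 14 libraries as CPM + 1 on log axes, with conventional EMB in blue, micro-EMB in orange, the 9 libraries filled, the 5 libraries left out open, and sample numbers beside the points. COL1A2, LTBP2, APOE, ITGBL1 and C4A show the 4 filled micro-EMB points above the 5 filled conventional points, ACTC1 and EIF1 show them below, and PECAM1 shows them mixed.

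Among contractile genes of heart muscle the calls were few and depended on single libraries. Of 16 contractile genes tested in the 9 libraries, 5 were lower and 1 higher at an unadjusted p under 0.05, beside 8.01% and 8.46% of all genes. Of the 5, 1 was called, and the median log2 fold change was -0.76. Without sample 54, 6 were called lower, 12 were lower at that limit and the median was -1.23, and without sample 16 the values were 0, 2 and -0.55. Calls also rose over all genes without sample 54, where 182 of 11703 were called lower and 1184 were lower at that limit. Without sample 16, 610 of 11488 genes were lower at that limit. The 1 contractile gene called in the 9 libraries was ACTC1 (ENSSSCG00000004803), cardiac alpha-actin. It stood at 2713, 4036, 4564, 6015 and 7234 CPM in conventional samples 6, 12, 23, 18 and 40, and at 916, 1278, 1855 and 2161 CPM in micro-EMB samples 16, 26, 30 and 54. The groups did not overlap, and the log2 fold change was -2.12 (-2.86 to -1.39, edgeR adjusted p = 0.0153). This call was absent when sample 16, 18, 23 or 40 was left out. Its reads can be shared with other actins, and it was at 0 in samples 38, 4 and 10.

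The other 4 contractile genes that were lower at the unadjusted limit were CSRP3, MYOM1, TNNC1 and TPM1, with log2 fold changes of -1.41, -1.26, -1.16 and -1.11, and TCAP was higher at that limit with 0.81. Troponin T and the cardiac myosin genes that follow did not pass it. TNNT2 stood at 9243, 9925, 6560, 6690 and 9113 CPM in the conventional samples and at 8900, 4780, 13132 and 9629 CPM in the micro-EMB samples. Its log2 fold change was -0.02 (-0.88 to 0.84), an interval that excludes a 2-fold difference. MYBPC3, cardiac myosin binding protein C, had a log2 fold change of 0.14 (-0.77 to 1.05) and MYH6 one of -0.56 (-1.63 to 0.51). RYR2, the calcium release channel of the sarcoplasmic reticulum, had one of -0.52 (-1.47 to 0.44), and GJA1, the gap junction protein connexin 43, one of -1.27 (-1.94 to -0.61, edgeR adjusted p = 0.0846). PKIA, an inhibitor of protein kinase A, and MYZAP, a protein of the intercalated disc, were called lower by edgeR with log2 fold changes of -1.62 and -1.57.

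No gene of the nuclear-encoded respiratory chain was called in the 9 libraries, and 9 were called lower when sample 54 was left out. In that comparison 182 of all 11703 genes tested were called lower. All 20 tested genes had a negative log2 fold change in the 9 libraries, and the median was -1.38, beside -0.12 over all genes. At an unadjusted p under 0.05, 16 were lower and 0 higher, beside 8.01% lower and 8.46% higher over all genes. Leaving out each library in turn kept the median between -1.68 and -1.11. All 20 were also negative in the 14 libraries, with 5 lower at that limit and a median of -1.82, beside 2.18% lower and a median of -0.47 over all genes. The 14 include the 9. Of the micro-EMB libraries added, sample 21 was at 0 CPM over the 21 genes in the table, and sample 10 had 3311 CPM from 5 of them. Samples 4 and 19 held 492 and 1453 CPM, and conventional sample 38 held 405 CPM. Within pig 4494 alone, 10 of the 20 passed the unadjusted limit, all lower, and the median was -1.11. Over all genes 395 of 10392 were lower at that limit in this pig. With library totals the median in the 9 libraries was -1.22.

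Its summed level over 21 genes was 8272, 5922, 5329, 5403 and 7279 CPM in conventional samples 6, 12, 23, 18 and 40. In micro-EMB samples 16, 26, 30 and 54 it was 3020, 2029, 2710 and 4806 CPM, so that the groups did not overlap. SDHD, a membrane anchor of complex II, stood at 108 to 187 CPM in the conventional samples and at 14.3, 69.9, 52.2 and 71.7 CPM in the micro-EMB samples. The groups did not overlap, and the log2 fold change was -2.03 (-3.03 to -1.04, edgeR adjusted p = 0.0752). The log2 fold change of COX5A, a subunit of complex IV, was -1.51 (adjusted p = 0.0965) and that of ATP5F1A, the alpha subunit of ATP synthase, was -1.48 (adjusted p = 0.113). The 17 tested genes of fatty acid and energy metabolism had a median of -0.85, with 7 lower and 1 higher at the unadjusted limit and 0 called, and PDK4 had a log2 fold change of -2.97 (adjusted p = 0.082). In the other 3 pigs the summed respiratory chain level of micro-EMB ran from 1137 to 6342 CPM with a median of 3654 CPM, which overlapped both groups.

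**Figure D4:**
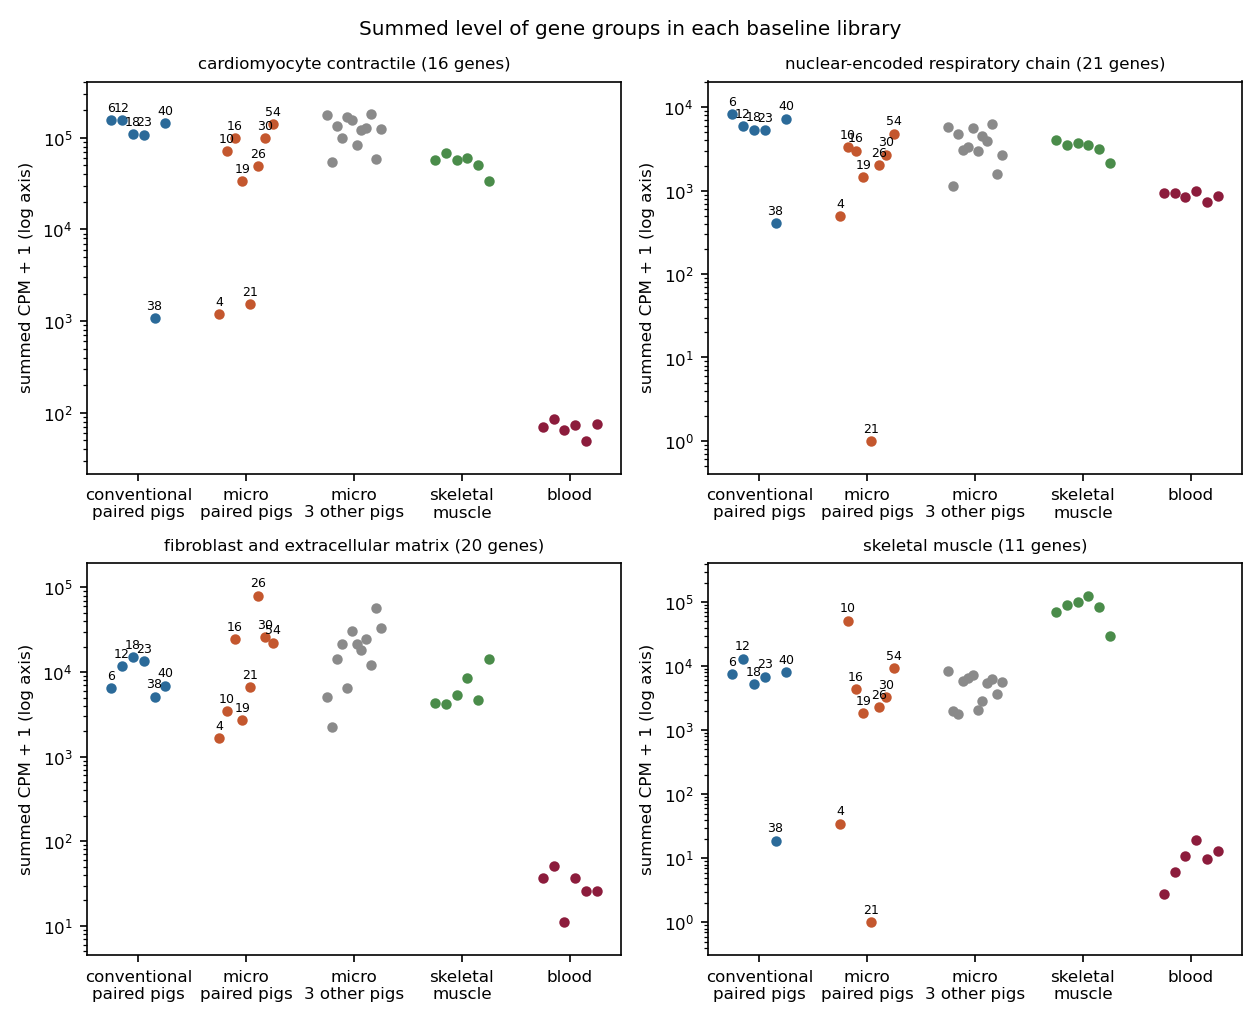
Summed CPM + 1 of 4 gene groups on log axes in each baseline library, with conventional EMB of pigs 4491 and 4494 in blue, micro-EMB of these pigs in orange, micro-EMB of the 3 other pigs in grey, skeletal muscle in green and blood in dark red, and sample numbers on the 14 libraries. Samples 38, 4 and 21 fall to 1075, 1192 and 1532 CPM of contractile genes, and samples 16, 26, 30 and 54 lie above the conventional libraries for matrix genes and below 5 of the 6 for the respiratory chain.

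Genes of protein synthesis and acute responses had lower medians as well. EIF1, an initiation factor that selects the start codon, stood at 363 to 483 CPM in the 5 conventional libraries and at 93.9, 200.2, 156 and 215 CPM in the 4 micro-EMB libraries. Its log2 fold change was -1.75 (-2.45 to -1.04, edgeR adjusted p = 0.0418), and EIF4E, which binds the messenger RNA cap, was lower by edgeR with a log2 fold change of -2.18. Of 14 cytosolic ribosomal protein genes 9 were lower and 1 higher at an unadjusted p under 0.05, with 0 called and a median of -0.83. Of 17 immediate early and heat shock genes 4 were lower and 0 higher, with a median of -0.87. FOS and EGR1, the immediate early transcription factors that tissue handling can induce, had log2 fold changes of -0.19 (-1.77 to 1.40) and -0.62 (-2.30 to 1.05), intervals that leave room for more than 2-fold in either direction. SNORD97 was called lower with a log2 fold change of -2.74.

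**Figure D5:**
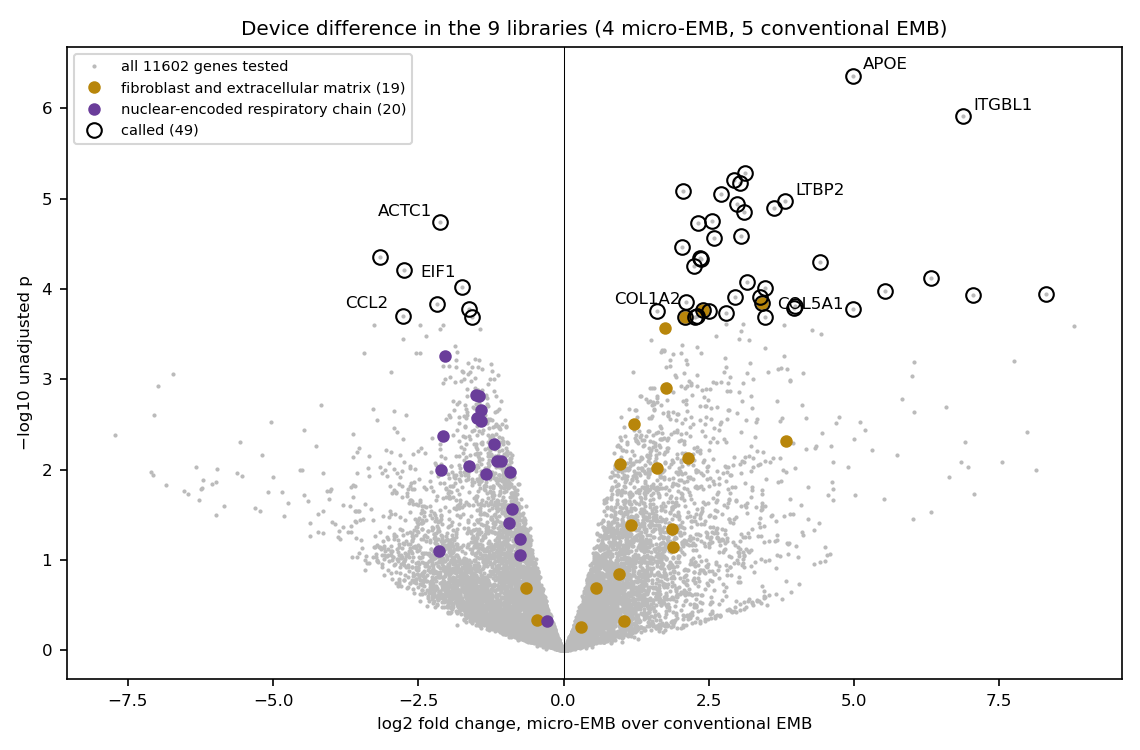
Each point is 1 of the 11602 genes tested in the 9 libraries, with the log2 fold change of micro-EMB over conventional EMB on the x axis and the -log10 unadjusted p of edgeR on the y axis. The 49 called genes are circled, and the 19 fibroblast and matrix genes (ochre) and 20 respiratory chain genes (purple) are coloured. Of the circled genes 41 lie on the micro-EMB side, with APOE and ITGBL1 highest and the collagens COL1A2 and COL5A1 lower down, and 8 on the conventional side with ACTC1, EIF1 and CCL2.

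No marker of vascular or lining cells was called. Of 12 endothelial genes 2 were higher and 0 lower at the unadjusted limit, with 0 called and a median of 0.35. PECAM1, the adhesion molecule of endothelial junctions, had a log2 fold change of -0.56 (-1.40 to 0.29) and KDR, the main receptor for vascular endothelial growth factor, one of -0.29 (-1.28 to 0.70). The 7 endocardial genes had a median of -0.04 and the 10 smooth muscle and pericyte genes one of -0.16, each with 0 called. CDH11, a cadherin of mesenchymal and endocardial cells, had a log2 fold change of 1.15 (0.35 to 1.96, edgeR adjusted p = 0.159) and ACTA2, smooth muscle actin, one of -0.37 (-1.21 to 0.48).

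Immune genes were compared because blood can enter a biopsy. In the 9 libraries the blood share was 0.108 ± 0.0562% (SD, n = 4) in micro-EMB and 0.0777 ± 0.0595% (SD, n = 5) in conventional EMB (exact permutation, p = 0.425). Of 8 neutrophil and monocyte genes 3 were higher and 0 lower at the unadjusted limit, with a median of 1.14, and of 8 tissue macrophage genes 2 were higher and 1 lower, with a median of 1.47 that leaving out single libraries moved between -0.44 and 1.77. No member of either list was called. C1QA, a chain of complement C1q made by tissue macrophages, stood at 10.5 to 37.5 CPM in the 5 conventional libraries. It was at 165, 970, 42.8 and 60.8 CPM in micro-EMB samples 16, 26, 30 and 54, above all of them, with a log2 fold change of 3.85 (adjusted p = 0.0817). CD68, a lysosomal protein of macrophages, was at 425 CPM in sample 26 and at 7.51 to 40.3 CPM in samples 16, 30 and 54, beside 14.7 to 27.1 CPM in conventional EMB. HBB, beta-globin of red cells, ran from 24.0 to 536 CPM in conventional EMB and from 1.08 to 66.4 CPM in micro-EMB. With the blood share as a further covariate 54 genes were called, 33 of the 49 among them.

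The inflammatory and macrophage genes that the study had taken from the literature were read last. Of 55 inflammatory genes tested in the 9 libraries 1 was called, 5 were higher and 4 lower at the unadjusted limit, near the 8.46% and 8.01% of all genes, and the median was -0.26. The called gene was CCL2 (ENSSSCG00000017723), the chemokine that recruits monocytes, and it was lower in micro-EMB. It stood at 36.8, 77.9, 86.3, 143 and 91.8 CPM in conventional samples 6, 12, 23, 18 and 40 and at 6.30, 14.0, 14.7 and 46.8 CPM in micro-EMB samples 16, 26, 30 and 54. Sample 54 lay above conventional sample 6, and the log2 fold change was -2.76 (-3.97 to -1.55, edgeR adjusted p = 0.0488). The call was kept without sample 54 and was absent without each of the other 8 libraries. In the other 3 pigs the median of CCL2 in micro-EMB was 9.36 CPM. LTA4H, the enzyme that makes leukotriene B4, and AGT, angiotensinogen, had log2 fold changes of -1.64 (-3.98 to 0.70) and -0.84 (-2.06 to 0.37). Of 22 macrophage genes 4 were higher and 0 lower at that limit, 0 were called, and the median was -0.31. MYO7A, an unconventional myosin, had a log2 fold change of 2.54 (adjusted p = 0.113), CD164, a sialomucin, one of -0.57 (-1.25 to 0.12) and MR1, which presents vitamin B metabolites to T cells, one of -2.41 (-5.21 to 0.38).

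The 12 baseline micro-EMB libraries of the other 3 pigs were set beside the 49 calls. Their median lay above the highest of the 5 conventional libraries for 28 of the 41 genes that were higher in micro-EMB and within the conventional range for the other 13. It lay below the lowest conventional library for 7 of the 8 that were lower. The share of all genes tested whose median lay outside the conventional range was not computed, so these counts do not show that the calls carried over. These pigs had no baseline conventional EMB, so in them device and pig cannot be told apart.

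The device difference was also tested between the pigs. In the 14 libraries 79 of 11280 genes (0.7%) had a device difference that differed between pig 4491 and pig 4494 by edgeR's interaction test. Without samples 10 and 21, and likewise without samples 4, 19 and 38, 0 genes did so, with 1750 and 2144 at an unadjusted p under 0.05. In the 9 libraries 928 of 13048 genes (7.11%) did so, where pig 4491 was left with 1 micro-EMB library, sample 16, and a difference between pigs cannot be told apart from that library.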

How the data were processed

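The authors trimmed the reads with Trim Galore, mapped them to the pig genome (Sscrofa10.2) with STAR and assigned them to genes with featureCounts. The deposited values are whole-number read counts per gene without normalization, for 25114 genes, and the authors had taken out genes of ribosomal RNA and of the mitochondrial genome. RNA had been extracted with the RNAdvance Tissue kit in reduced volumes and libraries made with the SMARTer Stranded Total RNA-Seq Kit v1. Whether counting used strand is not given in the sources used here, so genes that overlap on opposite strands are uncertain. Symbols were available for 11793 of the 25114 identifiers, and 268 of 430 symbols of the 25 textbook gene lists were found, so each list covers only part of its pathway. No column of the table was left unused for lack of a label (0 columns).

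Groups, pigs and timepoints came from the sample labels. Devices were compared with edgeR 4.0.16 in R 4.3.3 (TMM normalization, filterByExpr, quasi-likelihood test, pig as covariate, Benjamini-Hochberg adjustment over all genes tested), and a gene was called at an adjusted p under 0.05 and a change past 2-fold. Standard errors and 95% intervals were obtained from each log2 fold change and the F value of its test. Another pair of tools, DESeq2 1.42.0 and limma 3.58.1 (voom with sample quality weights), served as alternatives. Measures per library were tested by 2-sided exact permutation of the device within pigs over 1225 relabellings (smallest p 0.000816) with numpy 2.4.6 and scipy 1.17.1 in Python 3.11.15, and adjusted over 6 measures. Figures used matplotlib 3.10.9. The 115 blood genes were those with a median that reached 50 CPM in blood and stayed below 1 CPM in the skeletal muscle samples of the series. Scripts were tested on simulated counts.

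Named genes of the 14 libraries were, in each direction, the called genes or, with fewer than 10 called, the 10 with a symbol and the smallest p. Defining markers of the lists, genes called in at least 2 of the 4 sets of libraries, the 3 members of each study list with the smallest p, and at most 2 unnamed genes in each direction were added. The members, lists and left-out libraries were chosen with earlier results of these data known.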

Additional observations from a re-analysis of the deposited data

Results flagged for a closer look

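A sample far from the others of its group, by Dixon's test, was found in 10 of 24 groups of values. The limit of this test, about 1 in 20, is for normally spread values. The groups also share libraries, so that limit is not a chance rate for the 24. Conventional sample 38 was such a sample in 5 of the 10 groups. It had 1.81% of counts in blood genes, 8121 CPM over the platelet genes, 3750 CPM over the tissue macrophage genes, 1075 CPM over the contractile genes and 405 CPM over the respiratory chain genes. Micro-EMB sample 4 stood apart in blood share, 1.39% of counts, and in platelet genes, 4674 CPM. Samples 38 and 4 had been set apart for their blood counts, so their flags in blood share restate that choice. Micro-EMB sample 10 had 51387 CPM over the skeletal muscle genes, and micro-EMB sample 26 had 79860 CPM over the matrix genes. Conventional sample 40 had the most expressed genes of its group, 13909. The part of these libraries in the device comparison was measured by leaving them out.

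A device difference that differed between the pigs was found by edgeR's interaction test for 79 genes in the 14 libraries, and for 0 genes without samples 10 and 21 or without samples 4, 19 and 38.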

How the results depend on the processing

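Differences below are micro-EMB minus conventional EMB. Without samples 10 and 21 the difference in genes at equal depth became 749, in blood share 0.126 percentage points and in the share of the 100 leading genes -8.49 points, each the opposite direction to the 14 libraries. Samples 10 and 21 were left out for few genes, so the change in genes at equal depth follows in part from that choice. Without samples 4, 19 and 38 the blood share difference was 0.0636 points and that in similarity -0.309. In the 9 libraries the blood share difference was 0.0314 points, the leading-gene share -4.48 points and counted reads 0.62 (log2). Leaving out single libraries moved blood share from -0.154 to 0.272, leading-gene share from -4.05 to 4.53 and similarity from -0.331 to -0.154.

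The 0 calls of the 14 libraries became 5 without samples 4, 19 and 38, 49 in the 9 libraries, 13 with DESeq2, 12 with limma-voom, 3 with library totals, 24 without a filter, 1 with a 1 CPM filter, 3 without the pig term, 3 with all 26 baseline heart libraries, and 0 to 5 without single libraries (5 without sample 38, 1 without sample 40). The 49 calls became 875 with DESeq2, 17 with limma-voom, 81 with library totals, 586 without a filter, 85 without the pig term, 0 within pig 4494, and 0 to 337 without single libraries. Apart from the removal of samples, the cause was not tested. Alternatives for the 9 libraries, and library totals, were chosen after seeing the data. Library totals moved the median log2 fold change of all genes in the 14 libraries from -0.47 to -0.08 and the split at an unadjusted p under 0.05 from 102 higher and 212 lower to 243 and 104. Calls that differed between pigs went from 79 to 0 without samples 10 and 21, to 0 without samples 4, 19 and 38, and to 928 in the 9 libraries.

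Of the named genes, NOS1 reversed to -0.52 in the 9 libraries and -0.088 with limma-voom, and MYH8 and BMPR1B reversed to -0.55 and -0.81 in the 9 libraries. The other named values of the 14 libraries kept their direction, and 15 of them passed the threshold under an alternative. Of the called genes of the 9 libraries, 303 values under alternatives no longer passed it and 361 did, all in the same direction. These alternatives reuse the libraries that chose the genes, so the direction is not separate support. Depth limits sample 10 most, where 3 counts equal 40.5 CPM, followed by samples 19 and 4 with 9.49 and 6.77 CPM.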

Other observations

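Other cell types and programs of the wall were read in the 9 libraries and most of their lists held no called gene. Of 10 interferon response genes 3 were higher and 0 lower in micro-EMB at an unadjusted p under 0.05, with a median log2 fold change of 0.71. GBP2, a guanylate-binding protein induced by interferon, stood at 14.2 to 34.4 CPM in the 5 conventional libraries and at 166, 95.3, 43.4 and 71.0 CPM in micro-EMB samples 16, 26, 30 and 54, without overlap (log2 fold change 1.78, edgeR adjusted p = 0.0865). IRF1, an interferon-induced transcription factor, stood at 26.3 to 112 CPM and at 152, 129, 108 and 290 CPM, where sample 30 fell below conventional sample 18. ITGAM and CSF1R, the integrin CD11b of myeloid cells and the receptor for colony stimulating factor 1, had log2 fold changes of 2.70 and 4.12 (edgeR adjusted p = 0.0853 and 0.0823).

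The remaining lists gave few genes past the unadjusted limit. The 3 mesothelial and epicardial genes had a median of 2.55 with 1 higher, and the 4 nuclear RNA genes one of 0.71 with 1 higher. The 11 hypoxia and glycolysis genes had a median of -0.22 with 1 higher and 2 lower, the 9 lymphocyte genes one of 0.28 with 1 higher, and the 4 nerve and glia genes one of -0.40 with 1 lower. The 5 erythroid genes had a median of -0.76 with 1 lower, the 3 platelet genes one of -0.11 with 0, and the 6 skeletal muscle genes one of -1.15 with 1 lower. Heart muscle lists other than the sarcomere had medians of -0.54 for 8 calcium, conduction and natriuretic genes with 2 lower, -0.12 for 8 cardiac transcription factors with 0, -0.68 for 9 genes of the Purkinje system with 0 and -0.88 for 4 atrial genes with 1 lower. Of the 803 tested blood genes listed by the study, 3 were called higher and 0 lower, 55 were higher and 43 lower at the unadjusted limit, and the median was 0.03. These shares were below the 0.422%, 8.46% and 8.01% of all genes tested.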
